A study of Homo sapiens with 8 samples.

Results

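The RNA of 9 human genes whose products remove or prevent R-loops was described in cells with and without CGGBP1, the CGG triplet repeat binding protein 1. The genes were taken by name: the 4 RNase H genes RNASEH1, RNASEH2A, RNASEH2B and RNASEH2C, the helicase gene AQR, the topoisomerase genes TOP1, TOP2B and TOP3B, and the exonuclease gene XRN2. They are 9 of the 18388 genes measured, and 8 of them are among the 10138 genes with enough reads to be tested. The cells were U-2OS Tet-ON, a human osteosarcoma line that carries the tetracycline-regulated transactivator, and all groups share this line. Control siRNA (siControl) or CGGBP1 siRNA (siCGGBP1), which the paper describes as a pool of 4 siRNAs, was transfected at 50 nM for 72 h. The sample names of all groups also carry DMSO, with no dose or purpose given. During the last 60 min the medium held 75 µM 4-thiouridine (4sU), with 3 libraries in each group. A further siControl library at 0 µM and another at 200 µM 4sU enter no test. In SLAM-Seq, alkylated 4sU is read as a T-to-C conversion, so that RNA made during the labelling can be told from older RNA. The paper counts its replicates as biological ones, but neither it nor the labels say whether the libraries of a group came from separate cultures, so p-values measure only the spread between these libraries.

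R-loops hold a DNA:RNA hybrid and an unpaired DNA strand, and they arise mostly behind RNA polymerases. RNase H1 and the trimeric RNase H2 cut the RNA of a DNA:RNA hybrid. RNase H2 also removes single ribonucleotides from DNA, with RNASEH2A as its catalytic subunit and RNASEH2B and RNASEH2C as its partners. Aquarius, the product of AQR, is a helicase of the spliceosome that also unwinds hybrids. Topoisomerase I relaxes the negative supercoils behind RNA polymerase II that favour hybrid formation, topoisomerase IIβ passes one duplex through another, and topoisomerase IIIβ works with TDRD3 on single strands of DNA and RNA. XRN2 is the nuclear 5′ to 3′ exonuclease that degrades the RNA left on chromatin after cleavage at the poly(A) site.

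Because the study asks about short CGG tracts near promoters, the start sites of the 9 genes were searched for such tracts. The windows run from 250 bases before to 50 bases after the start and come from RefSeq (GRCh38.p14), where the 9 genes have 12 windows. CGGCGG on either strand stood in 8 of the 12 windows, belonging to 6 of the 9 genes, against 29.6% of all windows and 48.3% of those of the tested genes. CGGCGGCGG, each match of which also holds CGGCGG, stood in 4 windows of XRN2, RNASEH2A and TOP2B, against 6.21% of all windows and 10.7% of those of the tested genes. The windows of one gene can overlap, and both XRN2 windows hold the same tract. No window of TOP1, AQR or RNASEH2B held CGGCGG. A match describes letters only and does not show binding. The tracts of 5 genes whose RNA is described below are printed 5′ to 3′ on the strand of the gene, 30 bases each, with the longest run of CGG, or of its complement CCG, of the window in capitals:
XRN2, plus strand, chr20:21303252-21303281: cccagcttcccCGGCGGCGGcgccgtgacg
RNASEH2A, plus strand, chr19:12806523-12806552: gtaagcgtccaCGGCGGCGGgagcgccagg
TOP2B, minus strand, chr3:25664555-25664584: ccgccgctcggCCGCCGCCGgtcgctccct
RNASEH1, minus strand, chr2:3558304-3558333: ggtgttgagcgcCGGCGGctcgcgcccacg
TOP1, plus strand, chr20:41028632-41028661: gccgtgggaggagtCGGctccttatgcaaa
The tract of XRN2 begins 68 bases before the first start site and that of RNASEH2A 50 bases before it. The RNASEH1 tract begins 12 bases after the start. That of TOP2B begins 201 bases before the start site of its window at 25664323 to 25664622. The other TOP2B window, further upstream at 25664858 to 25665157, holds CGGCGG but not CGGCGGCGG. The printed TOP2B tract lies downstream of the start site of that window. TOP1 is shown for contrast, as its longest tract is a single triplet.

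The 6 compared libraries held 10127519 to 14221516 counted reads. Levels are given as RPM, the reads of a gene scaled to 1000000 counted reads in its library. The libraries showed 0.183 to 0.263 conversions per 100 covered T positions, against 0.0638 in the library without 4sU. CGGBP1 itself (ENSG00000163320), the target of the siRNA, had 106, 94.1 and 73.9 RPM in siControl and 18.2, 10.0 and 31.0 in siCGGBP1. Its log2 fold change was -2.22 (SE 0.39, edgeR adjusted p = 0.0138), and without siControl replicate 1 or siCGGBP1 replicate 1 its adjusted p was 0.0632 or 0.0851. TWIST1, a further mesenchymal marker, and HBB, a further blood marker, were listed as well but have no values here. Of the 5 other mesenchymal markers VIM, SPARC and COL1A1 had 525 RPM or more in all 6 libraries, FN1 had 19 to 81.5 and RUNX2 10 to 32.9. Of the 4 epithelial markers the keratins KRT8 and KRT18 had 109 to 405 RPM, EPCAM 4.52 to 13 and CDH1 0, and the blood and endothelial markers PTPRC, CD3E, PECAM1 and CDH5 had at most 0.681. The mesenchymal markers summed to 3522 to 4234 RPM in siControl and 5273 to 7264 in siCGGBP1, and the epithelial ones to 449 to 616 and 257 to 455. These sums do not describe each marker. SPARC (525 to 704 against 1279 to 1877) and COL1A1 (604 to 814 against 1482 to 2021) were higher in siCGGBP1. KRT18 was lower there (276 to 405 against 109 to 224). The groups overlapped for VIM, FN1, RUNX2, KRT8 and EPCAM. The part of the markers in the results below was not tested. Replicate 3 of both groups stood apart in its labelling, since the new-to-total ratio was 0 for 57.4% and 59.8% of the tested genes there and for 22.5% to 31.9% in the other 4 libraries. Reads come from the 3′ ends of transcripts and are not divided by length, so levels are not compared between genes.

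In total RNA, XRN2 and TOP1 were lower in every siCGGBP1 library than in every siControl library, and no other gene of the 9 separated the groups. Neither passed the test across all genes: edgeR called 0 of the 8 tested genes at an adjusted p under 0.05, where it called 1.79% of all tested genes in either direction (181) and 1.21% as lower (123). At an unadjusted p under 0.05 there were 2, TOP1 and XRN2, where 16.4% of all tested genes reached that p and 8.32% did so with lower values. Groups did not overlap for 24.3% of all tested genes, 11.7% with siCGGBP1 lower, and for 2 of these 8. DESeq2's Wald test called 1, TOP1, where it called 6.01% of the genes to which it gave an adjusted p, 3.45% as lower. The log2 fold change was below 0 for 7 of the 8, with a median of -0.22, against 49.9% of all tested genes below 0 and a median of 0.00. The count of 7 was between 5 and 7 when single libraries were left out.

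**Figure D1:**
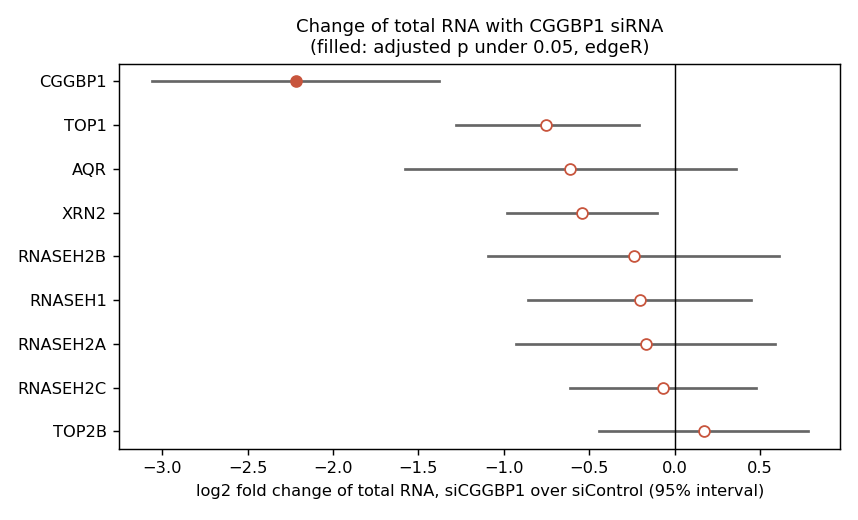
Log2 fold change of total RNA, siCGGBP1 over siControl (x axis), with its 95% interval for CGGBP1 and the 8 tested genes. CGGBP1 at -2.22 is the filled point, with an adjusted p under 0.05. The intervals of TOP1 and XRN2 lie below 0, before adjustment for the number of genes, and the other 6 include 0.

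RNASEH1 (ENSG00000171865), which encodes the monomeric RNase H, had 62.7, 109 and 56.6 RPM in siControl and 73.3, 76.6 and 50.2 in siCGGBP1. The groups overlapped, with the highest value in siControl replicate 2. Its log2 fold change in total RNA was -0.20 (95% interval -0.86 to 0.45, edgeR adjusted p = 0.803), and it was 0.12 without that library. Another annotated gene of GENCODE 44, ENSG00000286905, lies on the same strand over the last 500 bases of RNASEH1, so some reads may not be its own. The same holds for RNASEH2A, where THSD8 lies on the same strand over the last 500 bases.

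The 3 subunits of RNase H2 did not separate the groups either. RNASEH2A, the catalytic subunit, had 52.4, 44.4 and 27.2 RPM in siControl and 40.7, 43.7 and 26.5 in siCGGBP1, with replicate 3 lowest in both groups. RNASEH2B, which links the complex to PCNA, had 53.4, 27.2 and 76.3 in siControl and 62.2, 33 and 40.2 in siCGGBP1. RNASEH2C, the other partner subunit, had 101, 114 and 137 in siControl and 96.6, 151 and 93.8 in siCGGBP1. Their log2 fold changes were -0.17 (SE 0.35), -0.24 (SE 0.39) and -0.07 (SE 0.25), with edgeR adjusted p values of 0.867, 0.824 and 0.933. Intervals of -0.93 to 0.59, -1.09 to 0.61 and -0.61 to 0.48 leave room for a change in either direction, and each of the 3 differences changed sign when a single library was left out.

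AQR (ENSG00000021776), the aquarius helicase, had 27.6, 25.0 and 36.7 RPM in siControl and 28.5, 20.4 and 10.5 in siCGGBP1. The groups overlapped through siCGGBP1 replicate 1, and siCGGBP1 replicate 3 was the lowest of the 6. With 150 to 441 reads per library, its log2 fold change of -0.61 had a 95% interval of -1.58 to 0.36 (edgeR adjusted p = 0.551), and the value was -0.30 without siCGGBP1 replicate 3.

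TOP1 (ENSG00000198900, chromosome 20 of GRCh38, 41028822 to 41124487, plus strand), the topoisomerase that relaxes DNA during transcription, had 549, 296 and 294 RPM in siControl and 249, 237 and 202 in siCGGBP1. All 3 siControl libraries were above all 3 siCGGBP1 libraries, and siControl replicate 1 was far above the rest. The means were 380 ± 146 and 229 ± 24.4 (SD, n = 3 each), a fold of 0.596 and a log2 fold change of -0.75 (SE 0.25, 95% interval -1.28 to -0.21). The edgeR p was 0.00998 and its adjusted p 0.151. DESeq2 gave an adjusted p of 0.0375, and edgeR without a filter on low counts gave 0.0299. Without siControl replicate 1 the log2 fold change was -0.39, with an edgeR adjusted p of 0.480, so the size of the difference rests on that library. The single siControl libraries at 0 and 200 µM 4sU had 220 and 244 RPM of TOP1, within the range of the siCGGBP1 libraries.

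TOP2B (ENSG00000077097), which encodes topoisomerase IIβ, had 100, 83.7 and 131 RPM in siControl and 98.6, 94.5 and 166 in siCGGBP1, the single gene of the 8 with a log2 fold change above 0. The groups overlapped, with replicate 3 highest in both, and the log2 fold change was 0.17 (95% interval -0.44 to 0.78, edgeR adjusted p = 0.824). Without siCGGBP1 replicate 3 it was -0.14. TOP3B, the topoisomerase with activity on RNA, was near the limit of detection, with 14.5 to 47.0 reads per library. Its levels of 4.33, 3.53 and 1.79 RPM in siControl and 2.52, 4.00 and 1.02 in siCGGBP1 overlapped. It was not among the tested genes, and with a filter of 10 reads in place of 100 its log2 fold change was -0.39 (edgeR adjusted p = 0.951).

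XRN2 (ENSG00000088930, chromosome 20 of GRCh38, 21303331 to 21389825, plus strand), the nuclear exonuclease of transcription termination, had 229, 169 and 205 RPM in siControl and 147, 129 and 144 in siCGGBP1. The siCGGBP1 libraries lay close together and below all siControl libraries. The means were 201 ± 30.3 and 140 ± 9.82 (SD, n = 3 each), a fold of 0.689 and a log2 fold change of -0.54 (SE 0.20, 95% interval -0.98 to -0.10). The edgeR p was 0.021 and its adjusted p 0.207, and DESeq2 gave an adjusted p of 0.108. Leaving out single libraries gave log2 fold changes from -0.67 to -0.44. The siControl library at 200 µM 4sU had 144 RPM of XRN2, inside the range of the siCGGBP1 libraries, and that at 0 µM had 209.

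Ratios of 2 genes within a library do not depend on how libraries are scaled. For RNASEH2A over RNASEH2B, RNASEH2A over RNASEH2C and RNASEH1 over RNASEH2A, the mean log2 ratio differed by 0.00, -0.07 and -0.01, siCGGBP1 minus siControl. The SDs of these ratios were 1.12, 0.71 and 0.54 in siControl and 0.58, 0.32 and 0.06 in siCGGBP1. Such small differences of means therefore do not show that the ratios were constant. TOP2A over TOP2B, the topoisomerase II of dividing cells over that of all cells, was 4.42, 4.23 and 3.20 on the log2 scale in siControl and 3.71, 3.60 and 2.90 in siCGGBP1. The difference of -0.54 gave p = 0.3 in a two-sided exact permutation test, and it ran from -0.29 to -0.92 when siCGGBP1 replicate 3 or siControl replicate 3, in that order, was left out. TOP3B over its partner TDRD3 differed by -0.24 (exact permutation p = 0.9). All 5 adjusted p values were 1, and 0.1 is the smallest p that 3 against 3 libraries allow.

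Newly synthesized RNA was taken as the reads of a gene multiplied by its new-to-total ratio, the share of its reads that came from RNA made during the 60 min of 4sU. Here edgeR called 0 of the 8 tested genes, where it called 0.0493% of all tested genes (5 of 10138). None of the 8 had an unadjusted p under 0.05, as 3.15% of all tested genes had, and DESeq2, which gave an adjusted p to 5 of the 8 (not to the RNase H2 genes), called none of those 5 and 0.546% of all genes with one. The fitted spread between libraries was wide, with a biological coefficient of variation of 1.78 against 0.399 for total RNA. The log2 fold change was -3.87 (SE 2.46) for XRN2, -2.44 (SE 1.55) for TOP1 and 1.80 (SE 1.24) for RNASEH1, with edgeR adjusted p values of 0.994 for all 3. That of XRN2 was -9.54 without siCGGBP1 replicate 1, which left its other siCGGBP1 libraries at 0 new reads. RNASEH2B had no new reads in any siControl library and RNASEH2A none in any siCGGBP1 library, so their fitted values depend on the method and no fold is given. The values of AQR, TOP2B and RNASEH2C were 0.76, -2.07 and -0.35, each with an SE above 2.

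XRN2 and RNASEH1 separated the groups by their new-to-total ratio, XRN2 with lower and RNASEH1 with higher values in siCGGBP1. Over all tested genes the groups did not overlap for 7.07% (4.22% lower, 2.85% higher). The ratio of XRN2 was 2.61%, 3.18% and 5.65% in siControl and 1.05%, 0% and 0% in siCGGBP1. The means were 3.81 ± 1.62% and 0.35 ± 0.606% (SD, n = 3 each), with two-sided exact permutation p = 0.1, the smallest that can be reached, and 0.45 after adjustment over the 9 genes. The 95% upper credible limit in siCGGBP1 was 1.84%, 0.40% and 0.28%, below the 5% lower limit of 1.93%, 2.44% and 4.75% in each siControl library. Such limits describe the estimate within a library and not the spread between libraries. Within siControl, those of replicates 1 and 3 were also apart, at 1.93% to 3.53% and 4.75% to 6.72%. How many other genes have limits this far apart was not counted.

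The conversions of XRN2, from which its ratio is estimated and which are thus no separate support for it, were also lower in siCGGBP1. The siControl libraries held 146, 118 and 272 of them and the siCGGBP1 libraries 48, 49 and 13, against 12 in the deeper library without 4sU. Per 100 covered T this was 0.166, 0.158 and 0.282 against 0.089, 0.0888 and 0.016, with 0.00776 without 4sU. Reads with at least 2 conversions numbered 25, 35 and 79 in siControl and 9, 0 and 1 in siCGGBP1. All 6 libraries lay above the library without 4sU. Over all genes, siCGGBP1 replicates 1 to 3 had 0.263, 0.225 and 0.241 conversions per 100 covered T and siControl replicates 1 to 3 had 0.234, 0.245 and 0.183. The ratio was 0 for 31.9%, 29.6% and 59.8% of the tested genes in siCGGBP1 replicates 1 to 3 and for 23.2%, 22.5% and 57.4% in siControl replicates 1 to 3. The part of such differences in the values of XRN2 was not tested.

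For RNASEH1 the ratio was 7.07%, 6.37% and 6.93% in siControl and 34.3%, 8.28% and 44.4% in siCGGBP1. The siControl libraries differed by less than 1 percentage point, while siCGGBP1 replicate 2 stood close to them and far from the other siCGGBP1 libraries. Its credible limits of 6.34% to 10.7% overlapped those of siControl replicates 1 to 3 (5.08% to 9.85%, 4.84% to 8.31% and 4.62% to 10.2%). The lower limits of siCGGBP1 replicates 1 and 3, 30.6% and 39.8%, lay above them. The means were 6.79 ± 0.37% and 29 ± 18.6% (SD, n = 3 each), with two-sided exact permutation p = 0.1 and 0.45 after adjustment. The gene also had many conversions without any 4sU, 102 of them, or 0.483 per 100 covered T. That rate was above the 0.322, 0.256 and 0.228 of the siControl libraries and the 0.425 of siCGGBP1 replicate 2, and below the 1.56 and 1.11 of siCGGBP1 replicates 1 and 3. Reads with at least 2 conversions numbered 15, 7 and 0 in siControl, 84, 10 and 3 in siCGGBP1, and 1 without 4sU. The part of the conversions seen without 4sU in the ratio of RNASEH1 was not tested.

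The ratio of TOP1 was 3.47%, 7.14% and 0.55% in siControl and 1.82%, 0.46% and 1.00% in siCGGBP1, and the groups overlapped through siControl replicate 3 (exact permutation p = 0.3). TOP2B had 3.45%, 3.73% and 1.93% in siControl and 2.23%, 0% and 0% in siCGGBP1, and was lower in 8 of 9 pairs of libraries (exact permutation p = 0.2). AQR had 11.4%, 5.95% and 0% in siControl and 17.1%, 14.6% and 0% in siCGGBP1 (exact permutation p = 0.6). In AQR the 2 zeros were the replicate 3 libraries, where many other genes were at 0 as well. At 200 µM 4sU the single siControl library gave 36.9% for AQR, from 150 reads.

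The RNase H2 genes had ratios of 0% in many libraries. RNASEH2A was at 0% in 5 of the 6 libraries and at 0.76% in siControl replicate 2. RNASEH2B was at 0% in all siControl libraries and at 1.47%, 4.45% and 0% in siCGGBP1, and RNASEH2C had 0.77%, 2.48% and 0% in siControl and 0%, 1.84% and 0% in siCGGBP1. The upper credible limits of the 9 zeros of RNASEH2A and RNASEH2B in these libraries run up to 3.19%. A ratio of 0 here thus does not exclude a low ratio. Nor is it an absence of conversions, as RNASEH2A had 19 at 0% in siControl replicate 1 and 8 at 0.76% in siControl replicate 2. The part of sequencing depth in these zeros was not tested. TOP3B was at 0% in 5 of the 6 libraries with upper limits up to 46.5%, and carries no information on its synthesis. Over the 9 genes, 3 of the 8 tested were at 0 in at least 3 of 6 libraries, against 40.6% of all tested genes.

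The other genes of these pathways were described in 8 lists of partners, with 104 of 109 listed genes tested. In total RNA 2 of the 104 were called by edgeR, both lower and both S phase genes, where 1.79% of all tested genes were called, and 80 had a log2 fold change below 0, as 49.9% of all tested genes had. DESeq2 called 11, all lower, where it called 6.01% of all genes with an adjusted p and 3.45% as lower. The 2 genes were MCM5 and MCM3, subunits of the replicative helicase. MCM5 had 142, 162 and 99.7 RPM in siControl and 54.6, 64.6 and 29.5 in siCGGBP1, a log2 fold change of -1.46 (SE 0.31, edgeR adjusted p = 0.0346). MCM3 had 363, 426 and 398 in siControl and 268, 216 and 172 in siCGGBP1, a log2 fold change of -0.87 (SE 0.20, edgeR adjusted p = 0.0492). Neither gene was called once any one library other than siCGGBP1 replicate 3 was left out.

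By edgeR, the lists closest to the 9 genes held no called gene. Of 10 topoisomerases, their partners and repair enzymes, 5 were below and 5 above 0 (median -0.05). The gene with the lowest adjusted p there was TOP2A, with 2141, 1570 and 1201 RPM in siControl and 1293, 1147 and 1240 in siCGGBP1 (log2 fold change -0.43, edgeR adjusted p = 0.278). All 3 tested members of the intron-binding complex that holds aquarius were below 0 (median -0.82), and ISY1, a splicing factor of that complex, had 70.1, 78.8 and 58.1 in siControl and 32.9, 46.8 and 38.3 in siCGGBP1 (edgeR adjusted p = 0.159). Among 20 partners of XRN2 and factors of cleavage and termination, 13 were below 0 (median -0.06), and CPSF3, the endonuclease that cuts at the poly(A) site, had a log2 fold change of -1.08 (edgeR adjusted p = 0.121, DESeq2 0.0391). Against the 0.00 of all tested genes, the medians of the topoisomerase and termination lists were thus close by and that of the aquarius complex lower, in 3 genes.

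Of 12 genes of ribonucleotide excision repair, the pathway that RNase H2 starts, 11 were below 0 (median -0.41) and 0 were called by edgeR. At an unadjusted edgeR p under 0.05 there were 2 (16.4% of all tested genes, 8.32% with lower values). DESeq2 called 2, both lower (6.01% of all genes with an adjusted p, 3.45% as lower). RFC4, a subunit of the clamp loader, had 66.9, 64.5 and 78.7 RPM in siControl and 35.9, 35.3 and 35.6 in siCGGBP1 (log2 fold change -0.99, edgeR adjusted p = 0.0863). The 12 genes of mRNA packaging and export had 9 below 0 (median -0.30). The lowest adjusted p was that of the SR protein gene SRSF1 (log2 fold change -0.76, edgeR adjusted p = 0.0935, DESeq2 0.0129). The 8 tested genes of a list of other hybrid helicases and nucleases were split 4 and 4 (median -0.07). This list also holds the Fanconi anaemia protein gene FANCD2, which was at -0.94 (edgeR adjusted p = 0.174). The 5 tested genes of nucleic acid sensing had 3 below 0 (median -0.14), and ADAR, which edits double-stranded RNA, was at 0.55 (edgeR adjusted p = 0.286). Of the 34 S phase genes, 32 were below 0 (median -0.54). DESeq2 called 7, all lower (6.01% of all genes with an adjusted p, 3.45% as lower). An unadjusted edgeR p under 0.05 was reached by 13 (16.4% of all tested genes, 8.32% with lower values). Groups did not overlap for 15 (24.3%, 11.7% with siCGGBP1 lower). The part of the S phase genes in the values of RNASEH2A and of the repair genes used in replication was not tested.

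The genes whose level was most like that of TOP1 over the 8 libraries were LARP7 (Pearson's r = 0.973), which binds the 7SK RNA, COMMD1 (r = 0.972) and GIGYF2 (r = 0.947), a translational repressor. These values describe log2 RPM in 8 libraries that share cell line and protocol. The 3 genes were picked for the highest r. TOP1 stood at 549 RPM in siControl replicate 1 and at 202 to 296 in the other libraries. The part of that library in r was not tested. In total RNA the 3 genes had log2 fold changes of -0.49, -0.26 and -0.28, with edgeR adjusted p values of 0.337, 0.714 and 0.602.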

How the data were processed

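SLAM-Seq of 6 U-2OS Tet-ON libraries at 75 µM 4sU was compared, siCGGBP1 against siControl (n = 3 each). The expected counts deposited by the authors (of reads, of T-to-C conversions, of T positions covered, and of values named min2, taken to be reads that carry 2 or more conversions) were made with Bowtie2 2.3.0 to discard ribosomal reads, STAR 2.5.3a and GRAND-SLAM on GRCh38, as the study's methods and the submitters' processing notes give them. They are not normalized and are fractional for 11644 genes. The new-to-total ratio is a fraction estimated by the authors for each gene and library. A further 30 columns of these libraries, which hold double hits and the parameters of the ratio's distribution, were not used. No removal of PCR duplicates is described for these libraries, and the counts carry no molecular identifiers.

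Genes entered the tests if 3 or more of the 6 libraries held 100 or more reads. Rounded counts were fitted with edgeR 4.0.16 (quasi-likelihood test, TMM, R 4.3.3). New reads, the counts multiplied by the maximum a posteriori ratio, were fitted with the library sizes and TMM factors of total reads. P-values were adjusted by Benjamini-Hochberg over all 10138 tested genes, and called genes are those with an adjusted p under 0.05. Printed levels are RPM of all counted reads of a library. Alternatives were DESeq2 1.42.0, limma 3.58.1 for new reads, other filters, scalings and thresholds, a replicate block, and leaving out each library. The fitting functions were run on simulated counts of total reads with known changes, and new reads were not simulated. Ratios of single genes were compared by two-sided exact permutation tests. Named genes were the 9 genes, CGGBP1, the called genes of each list (or its gene with the lowest adjusted p), the partners in the gene ratios, and the 3 genes most like TOP1. The genes and lists were chosen with earlier results of these data known. Positions are from GENCODE 44 (GRCh38, the authors' build).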

Additional observations from a re-analysis of the deposited data

Results flagged for a closer look

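The siControl library at 200 µM 4sU, which enters no comparison, showed more conversions per 100 covered T than the siControl library without 4sU for 5 of the 9 genes. These rates at 200 µM were 0.0154 for RNASEH2A (1 conversion), 1.15 for AQR, 0.179 for TOP1, 0.251 for TOP2B and 0.189 for XRN2. Without 4sU they were 0 for RNASEH2A and AQR, 0.0889 for TOP1, 0.0635 for TOP2B and 0.00776 for XRN2. The other 4 genes went the other way, RNASEH1 with 0.358 at 200 µM and 0.483 without 4sU, RNASEH2B with 0.0558 and 0.0903, RNASEH2C with 0.00804 and 0.0209, and TOP3B with 0 and 0.0242. Each dose is 1 library, so these differences were not tested.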

How the results depend on the processing

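Across the alternatives, edgeR and DESeq2 called at most 1 of the genes, TOP1. DESeq2's Wald test called 1 (350 genes lower and 259 higher in total RNA, 11 in the related lists) and so did edgeR without a filter (303 lower, 174 higher), while a filter of 10 reads called 1 list gene and an added log2 fold change above 1 also left 1. Leaving out single libraries gave 0 called genes of the 9, 33 to 110 genes lower and 15 to 53 higher, 0 to 2 in the lists, and -2.71 to -1.91 for CGGBP1 (adjusted p 0.00222 to 0.0851). In the same way the log2 fold change ran from -0.37 to 0.12 for RNASEH1, -0.39 to 0.03 for RNASEH2A, -0.57 to 0.16 for RNASEH2B, -0.33 to 0.08 for RNASEH2C and -0.14 to 0.38 for TOP2B. In new RNA the calls were 4 lower with the posterior mean ratio, 7 lower and 12 higher with conversion counts, 19 and 11 with DESeq2, 0 and 0 with limma at 1 or 10 added, 1 higher with TMM on new reads, and 1 to 4 lower and 1 to 3 higher without single libraries. The new-RNA log2 fold change of RNASEH2C was 0.00 with TMM on new reads and -6.81 to 1.21 without single libraries, that of AQR -0.06 to 1.82 and that of XRN2 -9.54 to -3.29 (-6.81 with a replicate block). The ratio's groups did not overlap for 2 of the genes in the main comparison, against 7.07% of all tested genes. They did not overlap for 4 genes with the posterior mean and for 2 to 4 without single libraries. The share of all tested genes under those settings was not determined, so these counts do not show a change of the listed genes. Without single libraries, RNASEH2C's difference in the ratio ran from -1.08 to 0.228 percentage points. Leaving out libraries gave differences of log2 gene ratios of -0.61 to 0.49 for RNASEH2A over RNASEH2B, -0.46 to 0.23 for RNASEH2A over RNASEH2C, -0.32 to 0.20 for RNASEH1 over RNASEH2A, -0.92 to -0.29 for TOP2A over TOP2B and -1.05 to 0.40 for TOP3B over TDRD3. The cause of these changes was not tested.

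Same-numbered libraries correlated at 0.116, 0.201 and 0.098 in their deviations from the group means, each best with its own number, which is a hint from the data and not from the design. A replicate block called 165 genes lower and 88 higher in total RNA, 6 in the lists, and 1 lower and 1 higher in new RNA. Counts without molecular identifiers may hold copies of 1 molecule. With 3 libraries a group the exact permutation tests of the ratio cannot go below p = 0.1, and the 95% intervals for new RNA are wide.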

Other observations

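All 4 RNase H genes had fewer RPM in the siControl library without 4sU than in any of the 6 libraries at 75 µM 4sU, as 18.3% of all tested genes had. RNASEH1 had 41.8 there against a lowest value of 50.2, RNASEH2A 16.6 against 26.5, RNASEH2B 24.5 against 27.2, and RNASEH2C 46.4 against 93.8. TOP3B had 5.10 there, above its highest value of 4.33 at 75 µM, while XRN2, TOP1, TOP2B and AQR lay within the range of the 6 libraries. At 200 µM 4sU, RNASEH2A (23.4 RPM) and RNASEH2C (93.3) were again below their lowest values at 75 µM, as were 19.5% of all tested genes. Each of these doses is a single library, and the differences were not tested.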
